A study of Mus musculus with 5 samples.

Results

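Messenger RNA of 10 cell cycle entry genes was followed in bone marrow–derived macrophages (BMDMs) cocultured with mammary carcinoma cells: the transcription factor gene *Myc*, the D cyclins *Ccnd1*, *Ccnd2*, and *Ccnd3*, the cyclin-dependent kinases *Cdk4* and *Cdk6*, the CDK inhibitors *Cdkn1a*, *Cdkn1b*, and *Cdkn2d*, and the retinoblastoma gene *Rb1*. The 10 genes were taken as listed symbols matched to Entrez identifiers, out of 17057 genes with a count in at least 1 library, and the set was selected on the measured decrease of *Ccnd1* and *Myc* in this same contrast. The levels of those 2 genes thus are given as a description with no test. All 10 genes had counts in every library and passed the filter on low counts that left 12576 genes to test.

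The samples were 5 RNA-Seq libraries of BMDMs from BALB/c mice, 2 from cocultures with WT 4T1 cells and 3 from cocultures with *Adam17*-/- 4T1 cells, all kept for 48 hours. 4T1 cells are a line derived from a mouse mammary carcinoma, and ADAM17 is a membrane protease that sheds EGFR ligands, so the comparison asks which macrophage transcripts depend on the protease in the neighboring cancer cells. The marrow came from female mice, macrophages of both groups had been grown with M-CSF, and a porous membrane separated them from the cancer cells. CRISPR/Cas9 was used to delete *Adam17* in the 4T1 cells, while the macrophages kept the gene. All 3 libraries of the knock-out group carry the designation 2.8, so the loss of *Adam17* and any other property of this 1 line cannot be told apart. The labels do not say whether replicates came from separate cultures or animals, and p-values then measure the spread between these samples, which may be technical.

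In cells that are called to divide, growth factor signals raise MYC and the D cyclins, which bind CDK4 or CDK6. The active kinases phosphorylate RB, which releases E2F factors and the genes of DNA replication. The inhibitors p21 (*Cdkn1a*) and p27 (*Cdkn1b*) bind cyclin-CDK complexes, and p19 (*Cdkn2d*) binds CDK4 and CDK6. In macrophages, CSF-1 is a known inducer of *Myc* and of *Ccnd1*.

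The libraries held 14658690 to 20788371 expected counts, and 3 counts corresponded to 0.157 to 0.197 CPM (counts scaled to the TMM-normalized library total). The macrophage label was met by high *Csf1r*, *Itgam*, and *Lyz2*, yet 6 of the 8 macrophage markers passed the test as lower in the *Adam17*-/- cocultures, with summed levels of 27659 to 28416 CPM in the WT group and 17945 to 19906 CPM in the *Adam17*-/- group. Of 9 neutrophil precursor markers, 7 passed as higher, at 322 to 392 CPM against 1125 to 1305 CPM in sum. Of 6 progenitor markers, 2 (*Kit* and *Myb*) passed as higher, at 15.5 to 25.1 CPM against 17.6 to 25.9 CPM. The largest part of that sum in each library was *Cd34*, at 19.7 and 12.6 CPM against 13.2, 7.30, and 17.4 CPM, while the log2 fold changes of the other 5 were 0.79 to 1.82. Of 6 megakaryocyte markers, 4 passed as higher and 1, *Ppbp*, as lower, at 200 to 233 CPM against 120 to 182 CPM. *Ppbp* alone, at 154 and 192 CPM against 50.9, 62.2, and 64.4 CPM, carried the fall of that sum, and the log2 fold changes of the other 5 were all above 0. Of 6 mammary epithelial markers, *Cdh1* alone was high enough to be tested and did not pass, and the list summed to 11.0 to 12.5 CPM against 11.8 to 13.8 CPM, with *Epcam* and the keratin genes at 0.438 CPM or less in every library. Of 6 fibroblast markers, 4 were tested and 1, *Col3a1*, passed as higher, at 29.5 to 33.2 CPM against 24.2 to 107 CPM. No marker was at 0 in all libraries. The part of these shifts in the results that follow was not tested, and in bulk RNA fewer cells of a type cannot be told apart from less RNA per cell. *Adam17* itself, which was intact in these macrophages and so does not check the labels, was at 198 and 200 CPM in the WT group and 152, 164, and 161 CPM in the *Adam17*-/- group (log2 fold change -0.32, edgeR adjusted p = 0.0129).

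*Myc* (Entrez 17869, chr15:61985341-61990361 on GRCm38.p6) encodes the transcription factor that drives ribosome production and growth. It was at 67.6 and 51.5 CPM in WT replicates 1 and 2 and at 15.7, 14.7, and 23.3 CPM in *Adam17*-/- replicates 1, 2, and 3. The groups were well apart, and the lowest WT library stood above the highest *Adam17*-/- library. The means were 59.5 ± 11.4 CPM (SD, n = 2) and 17.9 ± 4.71 CPM (SD, n = 3), so that mean CPM differed by -69.9% and the log2 fold change was -1.73.

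Among the D cyclins, *Ccnd1* differed most. *Ccnd1* (Entrez 12443, chr7:144929931-144939831) encodes cyclin D1, the D cyclin best known as a growth factor sensor. It was at 133 and 93.1 CPM with WT 4T1 cells and at 19.9, 17.5, and 28.5 CPM with *Adam17*-/- 4T1 cells, so that again no *Adam17*-/- library came near the WT group. The means were 113 ± 28.1 CPM (SD, n = 2) and 22.0 ± 5.77 CPM (SD, n = 3), so that mean CPM differed by -80.6% and the log2 fold change was -2.36. *Myc* and *Ccnd1* were both higher in WT replicate 1 than in WT replicate 2, and within the *Adam17*-/- group both were highest in replicate 3 and lowest in replicate 2. *Ccnd2*, *Ccnd3*, and *Cdk4* had this same order of libraries. Within the *Adam17*-/- group *Myc* and *Ccnd1* spanned 0.66 and 0.70 on the log2 scale, where the median gene spanned 0.17 and the 90th percentile was 0.58.

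*Ccnd2* (Entrez 12444, chr6:127125162-127152188) encodes cyclin D2. Its levels were 67.6 and 61.7 CPM in the WT group and 34.8, 28.7, and 35.9 CPM in the *Adam17*-/- group. It fell in every *Adam17*-/- library, with means of 64.6 ± 4.15 CPM (SD, n = 2) and 33.2 ± 3.85 CPM (SD, n = 3). The log2 fold change was -0.96 (SE 0.109, 95% interval -1.20 to -0.72, adjusted p = 0.000559). *Ccnd3* (Entrez 12445, chr17:47505051-47599689), the gene of cyclin D3, was at 106 and 96.7 CPM against 84.8, 76.3, and 91.0 CPM. These levels did not overlap, yet the log2 fold change of -0.27 (SE 0.0967, 95% interval -0.49 to -0.05) missed the threshold with an adjusted p of 0.0587. The summed *Ccnd3* count was not whole in any library, so some reads were shared with entries outside its listed transcripts.

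*Cdk4* and *Cdk6* encode the kinases that D cyclins activate. *Cdk4* (Entrez 12567, chr10:127063535-127067288) was at 77.0 and 70.0 CPM with WT 4T1 cells and at 62.4, 57.8, and 62.9 CPM with *Adam17*-/- 4T1 cells. Every *Adam17*-/- library was below both WT libraries, and the fall was small, with means of 73.5 ± 4.95 CPM (SD, n = 2) and 61.0 ± 2.85 CPM (SD, n = 3) and a log2 fold change of -0.27 (SE 0.0878, adjusted p = 0.0430). This call held in 3 of the 13 alternative settings. *Cdk6* (Entrez 12571, chr5:3341004-3531008) was at 65.5 and 58.6 CPM against 43.4, 53.4, and 43.3 CPM, where *Adam17*-/- replicate 2 lay closer to the WT group than the other two. Its log2 fold change was -0.41 (SE 0.112, 95% interval -0.66 to -0.16, adjusted p = 0.0216), and the call held in 7 of the 13 alternatives. The summed *Cdk6* count was not whole in 3 of the 5 libraries.

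*Cdk4* is a textbook target of MYC, and its promoter is shown for the E-boxes (CACGTG, the sequence MYC-MAX dimers bind), which are in capitals. The 250 bases before the RefSeq start, chr10:127063285-127063534 on GRCm38.p6, plus strand, read 5′ to 3′:
*Cdk4*: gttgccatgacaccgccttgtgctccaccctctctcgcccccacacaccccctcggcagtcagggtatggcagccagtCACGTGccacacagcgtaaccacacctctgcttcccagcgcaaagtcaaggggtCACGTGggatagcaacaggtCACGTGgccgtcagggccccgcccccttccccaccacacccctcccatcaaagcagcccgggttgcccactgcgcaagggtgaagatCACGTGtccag

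The window held 4 E-boxes, whose first bases lay 172, 118, 98, and 11 bases before the start. Of 32851 RefSeq windows of the same length, 6.02% held an E-box and 20 (0.0609%) held 3 or more. The *Cdk6* window held 1, with its first base 220 bases before the start. RefSeq promoters were matched for 6 of the 10 genes, in 8 windows. Besides the E-box, 6 motifs were searched on both strands. The paired core of a p53 site was taken as CATG followed by CATG with 6 bases of any kind between them. The E2F site was searched as TTTCCCGC and, in a second form, as TTTGGCGC. The GC box was searched as GGGCGG, and the CCAAT box by the letters of its name. The AP-1 site was searched as TGANTCA, and the FOXO site was searched as GTAAACA. No pair of matches overlapped. A match describes letters in a window and says nothing of binding.

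*Cdkn1b* (Entrez 12576, chr6:134920401-134925525), the gene of p27, passed the test as higher. It was at 42.5 and 51.9 CPM in the WT group and at 86.1, 78.9, and 78.9 CPM in the *Adam17*-/- group. All 3 *Adam17*-/- libraries stood above both WT libraries and close to one another. The means were 47.2 ± 6.61 CPM (SD, n = 2) and 81.3 ± 4.16 CPM (SD, n = 3), a rise of 72.1% in mean CPM, with a log2 fold change of 0.78 (SE 0.105, 95% interval 0.55 to 1.02, adjusted p = 0.00105). Its promoter is shown because *Cdkn1b* alone among the 10 genes passed the edgeR test upward, with CCAAT boxes in capitals. The window is chr6:134920151-134920400, plus strand:
*Cdkn1b*: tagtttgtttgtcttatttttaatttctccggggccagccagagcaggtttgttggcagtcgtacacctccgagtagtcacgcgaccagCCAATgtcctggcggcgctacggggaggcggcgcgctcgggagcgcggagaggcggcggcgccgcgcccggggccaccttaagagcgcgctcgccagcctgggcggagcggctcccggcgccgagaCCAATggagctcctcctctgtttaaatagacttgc

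The 2 CCAAT boxes began 161 and 35 bases before the start, and 33.8% of all windows held one. No E-box or FOXO match was found in this window, while 3.17% of all windows held the FOXO letters.

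*Cdkn1a* (Entrez 12575, chr17:29090979-29100722), the gene of p21 and a target of p53, was at 263 and 231 CPM against 232, 216, and 218 CPM. The groups overlapped, since *Adam17*-/- replicate 1 was level with WT replicate 2, and the log2 fold change was -0.15 (SE 0.0866, 95% interval -0.35 to 0.04, adjusted p = 0.201). The interval leaves room for a fall of up to 0.35 or a rise of up to 0.04 on the log2 scale. *Cdkn2d* (Entrez 12581, chr9:21288459-21291421) was at 15.4 and 15.0 CPM against 17.0, 19.3, and 17.1 CPM. These levels did not overlap, but the log2 fold change of 0.22 (SE 0.112, 95% interval -0.03 to 0.47) did not pass, with an adjusted p of 0.155.

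*Cdkn1a* has 2 start sites, and the files list a transcript from each. The windows before both starts are printed to show that they differ in the paired p53 core, which is in capitals in the upstream window and has no match in the proximal window. They lie at chr17:29090729-29090978 and chr17:29093519-29093768 on the plus strand:
*Cdkn1a*, upstream start: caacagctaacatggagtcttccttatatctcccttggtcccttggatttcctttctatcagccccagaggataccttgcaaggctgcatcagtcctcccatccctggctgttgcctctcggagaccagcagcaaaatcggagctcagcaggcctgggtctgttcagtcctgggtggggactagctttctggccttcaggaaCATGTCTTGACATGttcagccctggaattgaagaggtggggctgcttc
*Cdkn1a*, proximal start: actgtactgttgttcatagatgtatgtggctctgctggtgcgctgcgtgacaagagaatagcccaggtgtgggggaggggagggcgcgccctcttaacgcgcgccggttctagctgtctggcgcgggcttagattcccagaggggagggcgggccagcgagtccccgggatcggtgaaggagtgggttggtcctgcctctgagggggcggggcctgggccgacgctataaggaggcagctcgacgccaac

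The paired core began 48 bases before the upstream start, and 0.490% of all windows held one. The transcript of the proximal start carried 94.5% to 97.8% of the gene's FPKM in each library. The upstream transcript carried 2.26% and 2.20% in the WT group and 5.46%, 3.55%, and 2.34% in the *Adam17*-/- group. The groups were next to each other without overlap, and an exact permutation test of 2 against 3 libraries cannot give a p below 0.1. The remaining inhibitor and cyclin genes other than *Ccnd3* were listed with 1 transcript each, as were *Cdk4*, *Cdk6*, and *Rb1*. The main *Ccnd3* transcript held 93.4% to 98.0% of that gene's FPKM, and the second held at most 6.63%, in *Adam17*-/- replicate 3. For *Myc*, 4 transcripts formed 2 pairs with identical values within each pair, so that reads were not separated inside a pair. The pair with a length of 2399 bases held 64.9% and 86.6% of the *Myc* FPKM in the WT group and 54.2%, 73.6%, and 76.0% in the *Adam17*-/- group, which overlapped.

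*Rb1* (Entrez 19645, chr14:73192858-73325951), the substrate that CDK4 and CDK6 phosphorylate, was at 60.3 and 89.0 CPM in the WT group and at 100, 93.8, and 91.1 CPM in the *Adam17*-/- group. The 2 WT libraries were far apart, by 0.56 on the log2 scale, where the median gene spanned 0.20, and WT replicate 2 lay just under the *Adam17*-/- group. The log2 fold change of 0.35 (SE 0.144, 95% interval 0.03 to 0.67) did not pass, with an adjusted p of 0.0910. Without WT replicate 2 it was 0.65 (adjusted p = 8.29e-05) and without WT replicate 1 it was 0.09 (adjusted p = 0.409), so that 1 library decided this value.

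**Figure D1:**
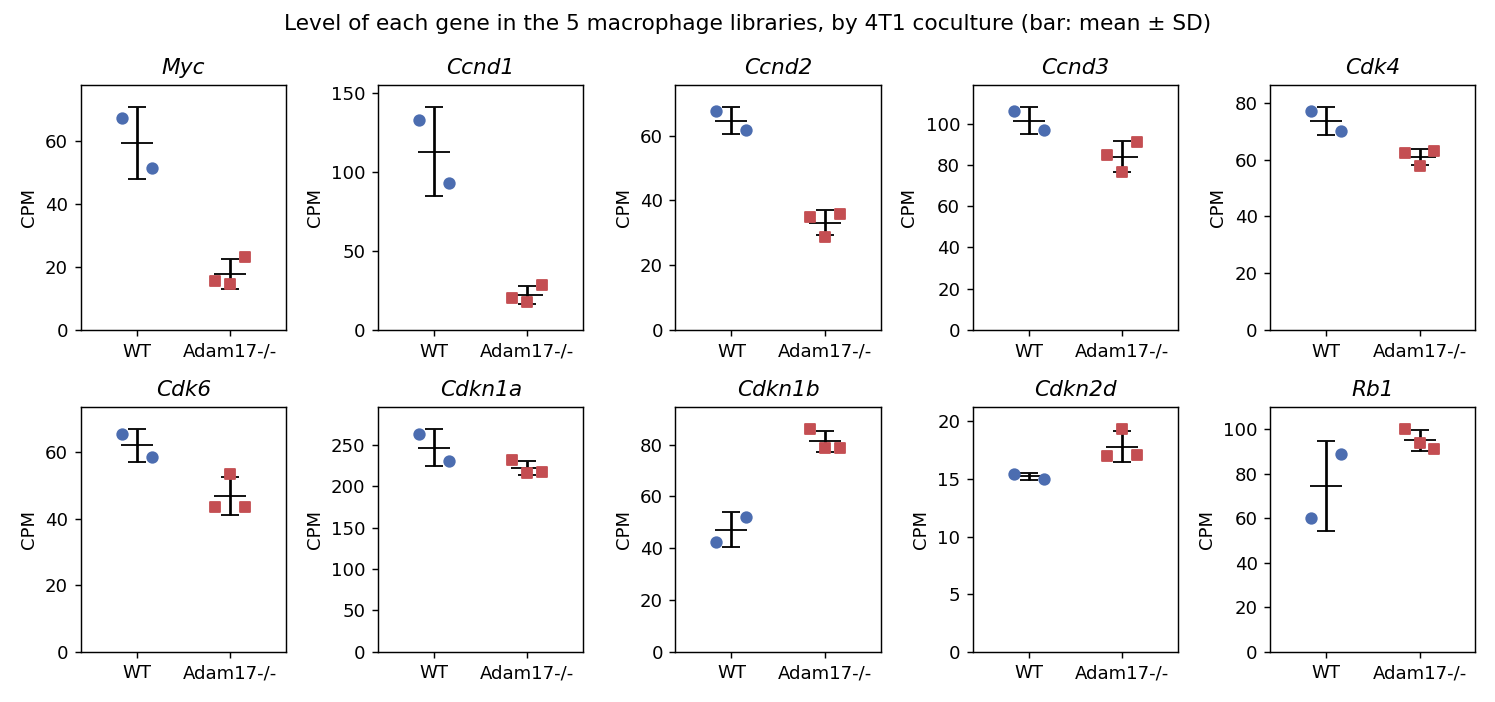
CPM (linear axis from 0) of each of the 10 genes in the 2 libraries from WT 4T1 cocultures (circles) and the 3 libraries from *Adam17*-/- 4T1 cocultures (squares), with bars for mean ± SD. *Ccnd1* and *Myc* show the widest gap between groups, *Cdkn1b* is the reverse, and *Cdkn1a* overlaps.

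Of the 8 genes that the rule did not name for a decrease, 3 (*Ccnd2*, *Cdk4*, and *Cdk6*) passed as lower, where 16.8% of all 12576 genes tested did so. *Cdkn1b* alone passed as higher in this fit, where 14.9% of all genes did so, while *Cdkn2d* and *Rb1* passed as well with scaling by library size only and with limma on FPKM. The other 4 genes did not pass in the edgeR fit. The median log2 fold change of the 8 genes was -0.21, beside 0.01 for all genes tested. It ran from -0.29 without WT replicate 2 and -0.13 without WT replicate 1 to -0.06 with library size only and with limma on FPKM, whose medians of all genes were 0.16, 0.15, and 0.11. In 7 of the 8 the groups did not overlap in CPM, beside 58.1% of all genes tested. *Ccnd2* and *Cdkn1b* passed in all 13 alternatives, with log2 fold changes of -1.03 to -0.73 and 0.64 to 0.93.

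**Figure D2:**
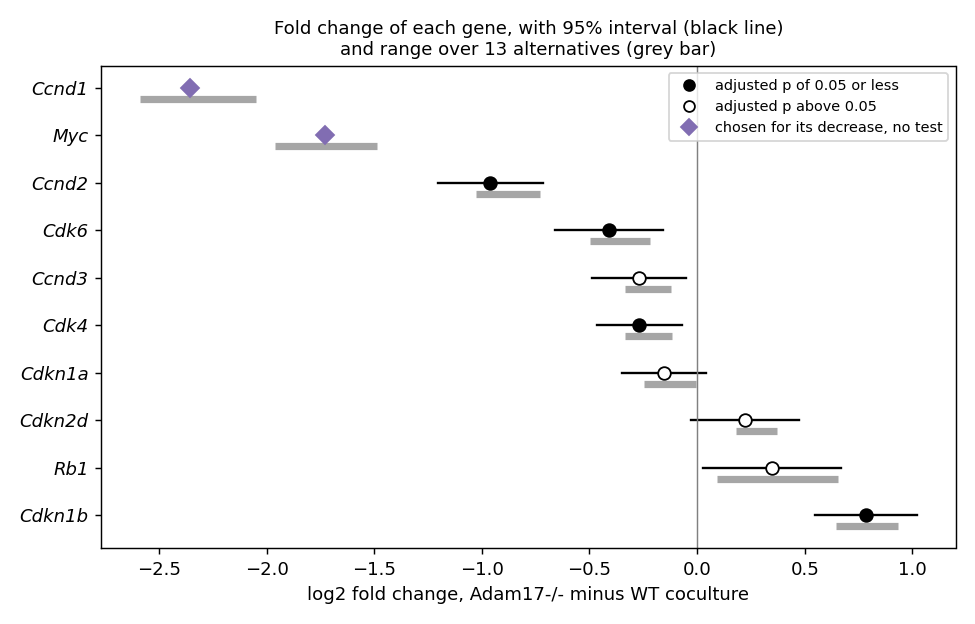
Log2 fold change of each gene, *Adam17*-/- minus WT coculture, with the 95% interval of the edgeR fit as a black line and the range over 13 alternative settings as a grey bar. Filled circles passed the test, open circles did not, and diamonds are *Ccnd1* (-2.36) and *Myc* (-1.73), which were chosen for their decrease and have no test.

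Levels were compared between genes as FPKM, the authors' value per transcript length, which is not TMM-normalized. In the WT group the order by mean FPKM was *Cdkn1a* (125), *Cdk4* (53.2), *Ccnd3* (49.4), *Ccnd1* (28.3), *Myc* (23.9), *Cdkn1b* (19.0), *Rb1* (15.4), *Cdkn2d* (11.9), *Ccnd2* (10.6), and *Cdk6* (5.07). Ranges of neighbors in this order overlapped for *Ccnd1* and *Myc*, for *Myc* and *Cdkn1b*, and for *Cdkn1b* and *Rb1*. In the *Adam17*-/- group the first 3 places were the same, at 125, 49.0, and 45.3 FPKM. They were followed by *Cdkn1b* (36.2), *Rb1* (21.6), *Cdkn2d* (15.4), *Myc* (7.98), *Ccnd1* (6.12), *Ccnd2* (6.04), and *Cdk6* (4.23). Here the ranges of *Cdk4* and *Ccnd3*, of *Myc* and *Ccnd1*, and of *Ccnd1* and *Ccnd2* overlapped. *Myc* and *Ccnd1* thus stood above *Cdkn1b*, *Rb1*, and *Cdkn2d* by mean FPKM in the WT group and below them in the *Adam17*-/- group. Since *Myc* and *Ccnd1* were chosen for their decrease in these libraries, this change of order carries no test.

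The makeup of the D cyclin messages differed between the groups. The FPKM of the 3 genes summed to 94.1 and 82.6 in the WT group and to 58.1, 51.2, and 63.1 in the *Adam17*-/- group. *Ccnd1* made up 34.8% and 29.0% of that sum in the WT group and 9.64%, 9.50%, and 12.5% in the *Adam17*-/- group. *Ccnd3* made up 53.7% and 58.4%, against 79.4%, 80.3%, and 77.2%, although its own FPKM of 50.5 and 48.3 overlapped the 46.1, 41.1, and 48.7 of the *Adam17*-/- group. Most of the difference in the sum, 72.0%, came from *Ccnd1*, 14.9% came from *Ccnd2*, and 13.2% came from *Ccnd3*. These shares contain *Ccnd1*, one of the 2 genes that chose the set, and carry no test.

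**Figure D3:**
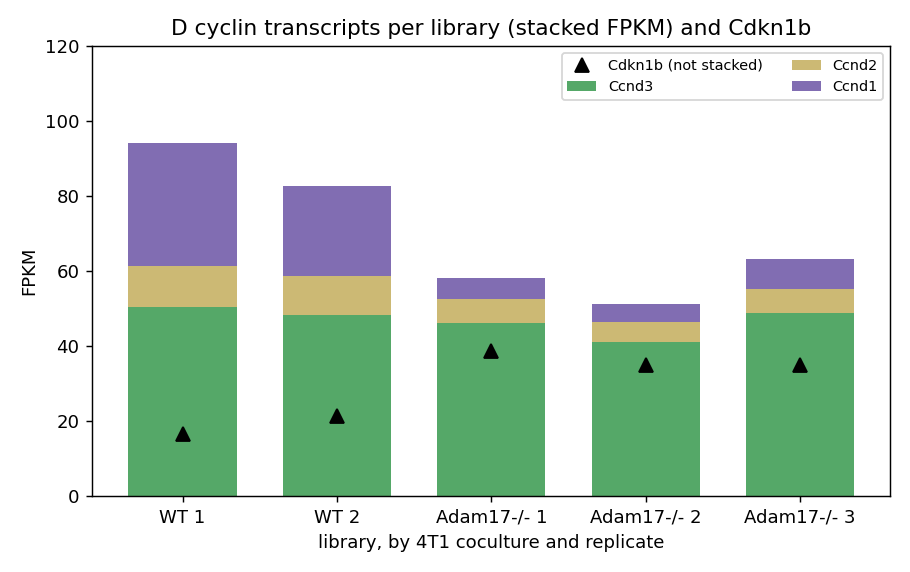
Stacked FPKM (linear axis from 0) of *Ccnd3*, *Ccnd2*, and *Ccnd1* in each of the 5 libraries, with the FPKM of *Cdkn1b* as triangles that are not part of the stack. The *Ccnd1* segment shrinks from 32.7 and 24.0 FPKM in the WT libraries to between 4.86 and 7.91 in the *Adam17*-/- libraries, while *Cdkn1b* goes from 16.7 and 21.3 to between 34.9 and 38.6.

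For the kinases, *Cdk4* plus *Cdk6* summed to 59.8 and 56.8 FPKM in the WT group and to 54.4, 51.1, and 54.1 FPKM in the *Adam17*-/- group, which did not overlap. *Cdk4* stood above *Cdk6* by a ratio of 10.4 and 10.6 in the WT group and of 12.7, 9.59, and 12.8 in the *Adam17*-/- group, and these ratios overlapped. Among the inhibitors, *Cdkn1b* made up 10.5% and 13.9% of the summed FPKM of *Cdkn1a*, *Cdkn1b*, and *Cdkn2d* in the WT group and 20.9%, 20.2%, and 20.3% in the *Adam17*-/- group. *Cdkn1a* remained the most abundant inhibitor in all 5 libraries, at 7.83 and 5.63 times the FPKM of *Cdkn1b* in the WT group and 3.41, 3.47, and 3.50 times in the *Adam17*-/- group. The ratio of *Cdkn1b* to the summed D cyclins was 0.178 and 0.258 in the WT group and 0.664, 0.684, and 0.553 in the *Adam17*-/- group. This ratio contains *Ccnd1*, which was chosen for its decrease, and carries no test.

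The genes whose pattern over the 5 libraries was most like that of *Ccnd1*, by the root mean square difference of centered log2 CPM, were *Nid2* (0.214), *Epha2* (0.229), *Dmpk* (0.273), *Adamts9* (0.289), and *Myc* (0.307). *Nid2* and *Adamts9* were low, at 2.46 CPM or less in every library. For *Myc* they were *Gpr84* (0.131), *Il12rb1* (0.146), *Cd163* (0.147), *Fasn* (0.165), and *Unc5b* (0.166), and *Ccnd1* ranked 19 in that list. The likeness is a description over 5 libraries in 2 groups. Since *Ccnd1* and *Myc* were chosen for their fall between these groups, genes with a like fall rank near them.

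Other genes of the pathway were taken from 9 lists with 108 genes, of which 100 were tested. In all, 23 passed as lower, 14 passed as higher, and 63 did not pass, and the pooled median log2 fold change was -0.06. Among the 7 cyclins and kinases of the G1/S step (such as *Ccne1* and *Cdk2*), 0 passed in edgeR, DESeq2 also called 0, and the log2 fold changes ran from -0.30 to 0.70. At an unadjusted p under 0.05, 2 of them were higher and 0 lower, and limma on the FPKM values called 3 higher. The share of all genes at that unadjusted threshold was not computed, so counts at it have no background here. Of 5 further CDK inhibitors 3 were tested and 0 passed in edgeR or DESeq2, with 1 (*Cdkn3*, at 12 counts or less) higher at an unadjusted p under 0.05 and 1 higher in limma on FPKM. *Cdkn1c* had at most 13 counts in a library, while *Cdkn2a* and *Cdkn2b*, the genes of p16 and p15, had at most 3 and 5 counts in a library. Of 12 RB family and E2F genes, 1 passed, the repressor-type *E2f4*, at 119 and 87.2 CPM against 78.5, 73.0, and 75.5 CPM (log2 fold change -0.45, adjusted p = 0.0220). The *E2f4* call held in 5 of the 13 alternatives, and the list held 0 to 2 lower and 0 to 2 higher calls over them. Of 14 genes for the turnover of MYC, D cyclins, and p27, 1 passed. It was *Cip2a*, which encodes a protein known to stabilize MYC and rose from 3.14 to 5.78 CPM in the mean (log2 fold change 0.88, adjusted p = 0.00546). With library size only and with limma on either FPKM scale, 2 genes of this list passed as higher and 0 as lower.

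In the MYC/MAX network, 10 of 13 genes were tested, 1 fell and 3 rose. *Mxd1*, whose product competes with MYC for MAX, rose from 80.6 and 71.5 CPM to 130, 128, and 126 CPM, with a log2 fold change of 0.75 (adjusted p = 0.000598). *Mga* rose by 0.32 on the log2 scale (adjusted p = 0.0350), and so did *Max* itself, by 0.25 (adjusted p = 0.0484). *Max* was named after its value was seen. *Mnt*, another MAX partner and repressor, fell by 0.34 on the log2 scale (adjusted p = 0.0373). The *Mxd1* call held in all 13 alternatives, that of *Mga* in 8, that of *Max* in 7, and that of *Mnt* in 4. Over them, 1 to 5 genes of the network passed as higher and 0 to 3 as lower. Of 15 MYC targets, mostly genes of ribosome production, 11 fell and 0 rose in edgeR, with a median log2 fold change of -0.43. The median was -0.28 with library size only and -0.28 and -0.27 with limma on FPKM, where the median of all genes was 0.16, 0.15, and 0.11. DESeq2 called 9 lower and 0 higher, and none was higher at an unadjusted p under 0.05. *Cad*, of pyrimidine synthesis, fell from 27.9 and 21.6 CPM to 11.2, 13.5, and 13.9 CPM (log2 fold change -0.95, adjusted p = 0.00163). *Bop1*, of ribosome assembly, fell from 54.2 and 38.0 CPM to 24.4, 24.6, and 25.3 CPM (-0.90, adjusted p = 0.00176). *Npm1*, *Ncl*, *Odc1*, and *Nop16* did not pass, at log2 fold changes of 0.18, -0.06, -0.11, and -0.21. Over the alternatives, 6 to 11 of the targets passed as lower. The count was 6 with library size only, with limma on either FPKM scale, and with the replicate block. It was also 6 when *Adam17*-/- replicate 1 or 3 was left out and 7 when *Adam17*-/- replicate 2 was. Without WT replicate 2, 1 target, *Npm1*, passed as higher.

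Of 20 genes of S phase and mitosis, 6 fell and 5 rose, and the median log2 fold change was -0.02, or 0.13 when only library size was used for scaling. *Mcm2* to *Mcm6*, subunits of the replicative helicase, made up 5 of the 6 that fell, with *Mcm5* changed by -1.06 on the log2 scale (adjusted p = 0.00705) and *Mcm3* by -0.64 (adjusted p = 0.00336). The sixth helicase subunit, *Mcm7*, did not pass, at 0.15 on the log2 scale (adjusted p = 0.347) with overlapping groups, and the other gene that fell was *Cdt1*, of replication licensing. The calls of *Mcm2*, *Mcm3*, and *Mcm5* held in all 13 alternatives, that of *Mcm6* in 7, and that of *Mcm4* in 3. The mitotic cyclins *Ccnb1* and *Ccna2* rose, from 1.36 to 2.68 CPM (log2 fold change 0.97, adjusted p = 0.0328) and from 4.82 to 7.95 CPM (0.72, adjusted p = 0.00844) in the mean. *Tyms*, which makes a nucleotide for DNA synthesis, also rose (0.45, adjusted p = 0.00867), as did *Mki67* and *Plk1*. The *Ccnb1* call held in 8 of the 13 alternatives, and the other 4 held in all. Over the alternatives, 4 to 6 genes of this list passed as lower and 4 to 6 as higher. The markers of neutrophil precursors moved upward with them, and their part in this rise was not tested.

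Of 12 p53 targets besides *Cdkn1a*, 11 were tested, 5 rose and 1 fell, with a median log2 fold change of 0.41. *Gadd45a*, a DNA damage response gene, rose from 11.3 and 11.1 CPM to 22.0, 22.4, and 21.2 CPM (log2 fold change 0.96, adjusted p = 0.000532). *Trp53inp1* rose from 30.5 and 49.8 CPM to 82.5, 74.5, and 73.4 CPM (0.94, adjusted p = 0.00407), and *Sesn2* fell by 0.30 on the log2 scale (adjusted p = 0.0289). Over the alternatives, 4 to 7 of these targets passed as higher and 0 to 1 as lower, with *Sesn2* past the threshold in 4 of 13. Of 10 genes of CSF-1 and EGFR input, 8 were tested, 3 fell and 0 rose in edgeR, and 5 were lower and 1 higher at an unadjusted p under 0.05. Over the alternatives, 2 to 5 passed as lower and 0 to 1 as higher. The gene that passed as higher in 7 of the 13 alternatives, DESeq2 and the fit without WT replicate 1 among them, was *Csf1*, the gene of CSF-1 itself, at 29.1 and 15.8 CPM against 35.4, 29.8, and 32.2 CPM (log2 fold change 0.53, edgeR adjusted p = 0.0795). *Ets2*, a transcription factor activated downstream of these receptors, was at 212 and 227 CPM against 81.2, 94.3, and 104 CPM (log2 fold change -1.23, adjusted p = 0.000232). *Egfr* was low in both groups and fell from 6.49 and 5.90 CPM to 3.12, 2.83, and 2.86 CPM (-1.07, adjusted p = 0.00185). *Csf1r*, which encodes the CSF-1 receptor, was at 5356 and 4374 CPM in the mean and did not pass, with a log2 fold change of -0.29 (adjusted p = 0.0520). The lists were compiled with results of these data known. Their edgeR counts after adjustment are read beside the 16.8% and 14.9% of all genes tested that passed as lower and higher. Counts at an unadjusted p under 0.05 have no such share beside them and are not read as a result about a list.

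**Figure D4:**
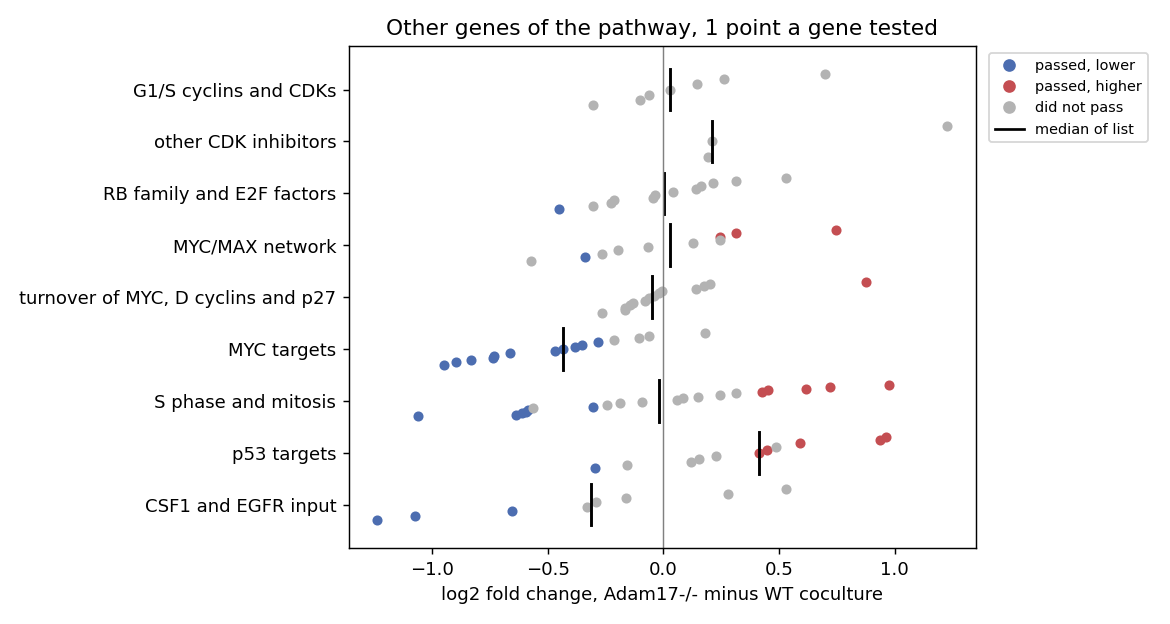
Log2 fold change of each tested gene, *Adam17*-/- minus WT coculture, in the 9 pathway lists, with 1 point a gene, blue for genes that passed as lower, red for those that passed as higher, grey for the rest, and a black line at the list's median. The 15 MYC targets lie mostly left of 0 (median -0.43), the p53 targets mostly right of it (median 0.41), and the S phase and mitosis list spreads to both sides.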

How the data were processed

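RNA-Seq libraries of BMDMs were grouped by the sample labels, 2 from WT and 3 from *Adam17*-/- 4T1 cocultures. The authors sequenced poly(A) RNA on a BGISEQ-500 platform, aligned reads to GRCm38 with HISAT, and quantified transcripts with Bowtie2 and RSEM (versions not given in the sources used here). For each transcript, the deposited files hold an expected count (not normalized) and, beside it, FPKM, which the authors scaled to transcript length and depth. An expected count divides a read among the transcripts it fits, and 48.3% to 49.3% of the values per transcript were not whole. Transcripts under 0.01 FPKM were not listed and were taken as 0. How reads on overlapping genes were assigned is not stated. A row that names no gene held at most 8.61e-05% of the counts and was left out.

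Expected counts were summed per Entrez gene, and rounded (a change of at most 0.5). The quasi-likelihood test of edgeR 4.0.16 (R 4.3.3) was fitted after filterByExpr and TMM scaling, with no covariates. The threshold for passing was 0.05 after Benjamini-Hochberg adjustment across the 12576 genes tested. Patterns per library used log2 CPM with a prior count of 2. As alternatives, DESeq2 1.42.0 and limma 3.58.1 replaced edgeR (limma used log2 FPKM with a pseudocount of 0.1 or 1), TMM was replaced by upper quartile factors or by library size, the filter was dropped or set to 10 counts in every library, the replicate number was added as a block, and single libraries were left out. Figures were drawn with matplotlib 3.10.9 in Python 3.11.15. Coordinates and promoter windows are those of RefSeq on GRCm38.p6.

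The members and gene lists were chosen with earlier results of these data known. Named were all 10 genes, *Adam17*, the 2 genes of each list with the largest log2 fold change among those that passed in each direction, the 5 nearest patterns to *Ccnd1* and to *Myc*, and transcripts with 5% or more of a gene's FPKM. *Max*, *Csf1*, *Csf1r*, *Mcm7*, *Tyms* and the other S phase genes beyond the rule, the MYC targets that did not pass, the CDK inhibitors with few counts, and single markers were named after their values were seen, as were the G1/S examples. Depth gives a floor of 3 counts. The chi-square per degree of freedom was 25.7 between the WT libraries and 5.22 to 6.32 between *Adam17*-/- libraries, so that no libraries were duplicates. Between a WT and an *Adam17*-/- library it was 44.5 to 84.4. The WT libraries thus differed more from one another than the *Adam17*-/- libraries did.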

Additional observations from a re-analysis of the deposited data

How the results depend on the processing

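None of the 8 tested genes changed direction in the 13 alternatives, although the log2 fold change of *Cdkn1a* shrank to as little as -0.0049. The log2 fold changes ran from -2.59 to -2.05 for *Ccnd1* and from -1.96 to -1.49 for *Myc*. Both were chosen for their decrease in these same libraries, so their kept direction was no check. Of the 8 tested genes, the 3 lower calls became 1 with library size only, 1 with limma on either FPKM scale, and 1 with the replicate block, and 1 to 5 when a library was left out (5 without WT replicate 2, 1 without *Adam17*-/- replicate 1 or 3). The 1 higher call became 3 with library size only, 3 with limma on either scale, and 2 with no filter, and 1 to 2 when a library was left out (2 without WT replicate 2). *Ccnd3* (-0.34, adjusted p = 0.0104) and *Cdkn1a* (-0.25, adjusted p = 0.0172) passed only without WT replicate 2. Adjusted p over all alternatives ran from 0.0104 to 0.339 for *Ccnd3*, from 0.0172 to 0.966 for *Cdkn1a*, from 0.00482 to 0.294 for *Cdk4*, from 0.00343 to 0.168 for *Cdk6*, and from 0.0227 to 0.334 for *Cdkn2d*. In the pathway lists, the 23 lower calls became 12 with library size only and with limma on either scale and 14 with the replicate block, and 12 to 29 when a library was left out (12, 14, and 13 without *Adam17*-/- replicates 1, 2, and 3, and 29 without WT replicate 2). The 14 higher calls became 27 with library size only and 26 with limma on either scale, and 11 to 19 when a library was left out. Library size scaling moved the median of all genes from 0.01 to 0.16 and the share of higher genes among all calls from 46.9% to 73.7%, limma on FPKM moved that share to 74.2% and 73.9%, and upper quartile factors moved it to 57.9%. The replicate numbers were shared by the groups only for replicates 1 and 2, whose deviations from the group means correlated at -0.124 and -0.0504, so that the numbers were not taken as pairs. With the replicate block, 1126 genes passed as lower and 1216 as higher, against 2114 and 1869. The lower and higher counts over all genes were 1077 and 3019 with library size only, 1016 and 2927 or 1011 and 2867 with limma, and 926 and 1089, 1168 and 1240, and 1237 and 1208 without *Adam17*-/- replicates 1, 2, and 3. With 2 libraries in the WT group the fit assumes that a lone library varies like the other group when 1 is left out. The cause of these changes was not tested.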
